A study of Mus musculus with 12 samples.

Results

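The 40 genes described here encode proteins that carry a cell through mitosis: CDK1 with its cyclins and phosphatases, the mitotic kinases, the spindle checkpoint, the anaphase-promoting complex, the chromosomal passenger complex, kinetochore proteins, kinesins, spindle and cytokinesis factors, and proteins of the mitotic chromosome. They were chosen by function, from a fixed list of symbols. Of the 40, 39 had a probe set carrying their symbol in the array annotation, among 18194 genes in all. Cyclin B1 (Ccnb1) had none and was not analysed here. Where a gene had several probe sets, the brightest represented it (the highest mean over the 12 arrays). All 39 passed the brightness filter and lay above the median of the array on every array, so no member was lost to low signal.

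RNA from sorted mouse thymocytes was hybridised to 12 Affymetrix arrays, in 6 groups of 2: IkL/L and WT cells, each sorted as DN3, DN4 and DP. The labels call the IkL/L animals Ikaros-deficient, and cells of 3 mice were combined for a sort. Strain and age are not in the labels, and neither is whether replicate arrays were made from different pools. In IkL/L cells the replicates differed in Y-linked signal at every stage (given below) and so were not made from the same pool. In WT cells Xist, expressed in female cells, was higher on replicate 1 at every stage. It read 12.09 and 11.34 in DN3, 11.53 and 10.33 in DN4 and 12.41 and 11.40 in DP cells. The WT mean over Y-linked genes was lower on replicate 1 each time (7.12 and 7.58, 6.59 and 7.24, 7.83 and 8.36). How much of the spread between WT arrays, which p-values measure, is technical was not tested. Values are log2 signals, and a call is a Benjamini-Hochberg adjusted p under 0.05 from limma over the 11649 tested genes.

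Thymocytes without CD4 and CD8 pass a checkpoint at the DN3 stage, where a rearranged T cell receptor beta chain is tested. Cells that pass divide rapidly through DN4 and into the early DP stage, whereupon most DP cells (positive for CD4 and CD8) stop dividing. Ikaros, encoded by Ikzf1, is a zinc finger DNA-binding protein of lymphocytes. Transcripts of mitosis genes accumulate late in the cell cycle, so their level in a population follows how many of its cells are near division. In bulk samples, fewer cells in mitosis and less of each RNA per cell cannot be told apart.

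The labels were checked first. Ikzf1 read 11.23 and 11.23 in IkL/L DN3 cells against 11.83 and 11.93 in WT DN3 cells, and was lower in IkL/L cells at all 3 stages, with differences from -0.70 to -0.63 and adjusted p between 0.00454 and 0.0101. Where its probe set lies relative to the altered part of the gene was not tested. DP-stage markers averaged 12.1 to 12.3 on the DP arrays and 8.37 to 9.22 on the others. DN3-stage markers averaged 10.8 to 11.2 on the DN3 arrays and 8.27 to 9.50 elsewhere. B cell markers averaged 4.86 to 5.26, close to the array medians of 5.14 to 5.22. On each array 3 or 4 of the 5 genes lay below the median, but Cd79b lay above it, with group means from 6.97 to 8.53 (8.53 in IkL/L and 7.83 in WT DP cells). The 3 IkL/L replicate 2 arrays stood apart: their mean over 3 Y-linked genes was 3.07 to 3.45, against 6.59 to 8.36 on the other 9 arrays. The counts of called members below are therefore also given without these 3 arrays.

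Promoters were read for 32 of the 39 members from RefSeq (build GRCm38.p6; 35 windows of 300 bases, 250 before to 50 after an annotated start). Promoters of late cell cycle genes are known for a cell cycle genes homology region (CHR, TTTGAA or TTCGAA), to which MuvB complexes bind, and for CCAAT boxes, to which NF-Y binds. A CHR on either strand was found in 30 of the 35 windows (85.7%), against 14% of the 12047 windows of tested genes and 19.2% of all 32851 windows. A CCAAT on either strand was found in 28 (80%), against 37.7% and 37.4%. Both occurred together in 27 (77.1%), against 5.7% and 7.52%. Within 50 bases either side of the start, 27 windows (77.1%) held a CHR, against 3.64% of the windows of tested genes. TGGGAA, the core of Ikaros family motifs, was found in 6 member windows (17.1%) and in 22.9% of the windows of tested genes. A match is a description of the letters and not a bound site.

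The 5 windows below were chosen because Ube2c, Racgap1 and Nusap1 had the largest called genotype differences in DP cells, Ndc80 the largest step from DN3 to DN4, and Bub3 no fall in WT DP cells. Capitals mark CHR and CCAAT letters on either strand (TTCAAA and ATTGG are the reverse strand forms). The windows lie at chr2:164769679-164769978 (plus strand) for Ube2c, chr15:99651607-99651906 (minus strand) for Racgap1, chr2:119618048-119618347 (plus strand) for Nusap1, chr17:71526808-71527107 (minus strand) for Ndc80 and chr7:131560120-131560419 (plus strand) for Bub3, each written 5′ to 3′ along its gene.
Ube2c: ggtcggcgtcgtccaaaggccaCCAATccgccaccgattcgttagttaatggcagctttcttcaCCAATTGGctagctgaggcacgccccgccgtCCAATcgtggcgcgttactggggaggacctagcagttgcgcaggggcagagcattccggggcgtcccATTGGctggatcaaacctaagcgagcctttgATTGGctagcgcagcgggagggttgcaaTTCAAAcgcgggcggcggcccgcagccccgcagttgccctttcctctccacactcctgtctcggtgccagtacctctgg
Racgap1: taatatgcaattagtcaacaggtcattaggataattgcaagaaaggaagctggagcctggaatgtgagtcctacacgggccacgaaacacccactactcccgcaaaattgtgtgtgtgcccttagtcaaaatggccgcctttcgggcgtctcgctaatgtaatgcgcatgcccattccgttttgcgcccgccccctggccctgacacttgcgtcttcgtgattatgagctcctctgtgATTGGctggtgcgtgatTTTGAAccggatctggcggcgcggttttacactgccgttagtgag
Nusap1: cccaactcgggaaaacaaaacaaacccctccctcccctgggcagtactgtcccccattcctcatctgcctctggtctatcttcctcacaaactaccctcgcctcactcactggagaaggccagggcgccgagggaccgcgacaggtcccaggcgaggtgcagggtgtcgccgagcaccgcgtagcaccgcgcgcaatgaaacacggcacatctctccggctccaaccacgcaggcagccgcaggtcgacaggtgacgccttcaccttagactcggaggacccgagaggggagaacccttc
Ndc80: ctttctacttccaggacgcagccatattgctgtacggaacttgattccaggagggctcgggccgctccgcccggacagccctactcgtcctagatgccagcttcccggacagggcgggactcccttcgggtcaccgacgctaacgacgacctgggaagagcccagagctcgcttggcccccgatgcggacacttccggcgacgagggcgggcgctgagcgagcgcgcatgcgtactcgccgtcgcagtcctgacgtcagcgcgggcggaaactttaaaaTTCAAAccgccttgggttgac
Bub3: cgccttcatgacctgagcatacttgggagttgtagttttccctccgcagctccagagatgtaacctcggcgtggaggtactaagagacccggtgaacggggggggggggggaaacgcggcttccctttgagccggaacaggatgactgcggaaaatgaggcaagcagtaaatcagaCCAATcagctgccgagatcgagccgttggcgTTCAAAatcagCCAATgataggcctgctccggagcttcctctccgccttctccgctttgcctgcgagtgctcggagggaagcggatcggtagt
The Ube2c window held 1 CHR and 6 CCAAT, of which 2 overlap on opposite strands. Racgap1 held 1 of each. Ndc80 held a CHR and no CCAAT and Bub3 a CHR with 2 CCAAT. Nusap1 held neither, together with Birc5, Mad2l1 and Nuf2. Cenpe lacked a CHR, and Anln and Kif2c lacked a CCAAT. Ccna2, Cdc25c, Aurkb, Incenp, Kif20a, Tpx2 and Foxm1 were not searched here.

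Across the 3 stages, the members moved as a block. In IkL/L cells, the mean of all 39 was highest in DN4 and lowest in DP cells, an order that 26.9% of tested genes shared. In WT cells 37 of 39 had this order, against 27.8% of tested genes. The exceptions were Bub3, a checkpoint protein, and Kif23, a kinesin of the central spindle. Relative to each gene's mean over the arrays, the median member stood at 0.27 and 0.18 on the IkL/L DN3 arrays, at 0.71 and 0.68 on the IkL/L DN4 arrays and at -0.22 and -0.60 on the IkL/L DP arrays. On the WT arrays it stood at -0.11 and 0.15 in DN3, 0.27 and 0.42 in DN4 and -0.70 and -0.93 in DP cells.

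**Figure D1:**
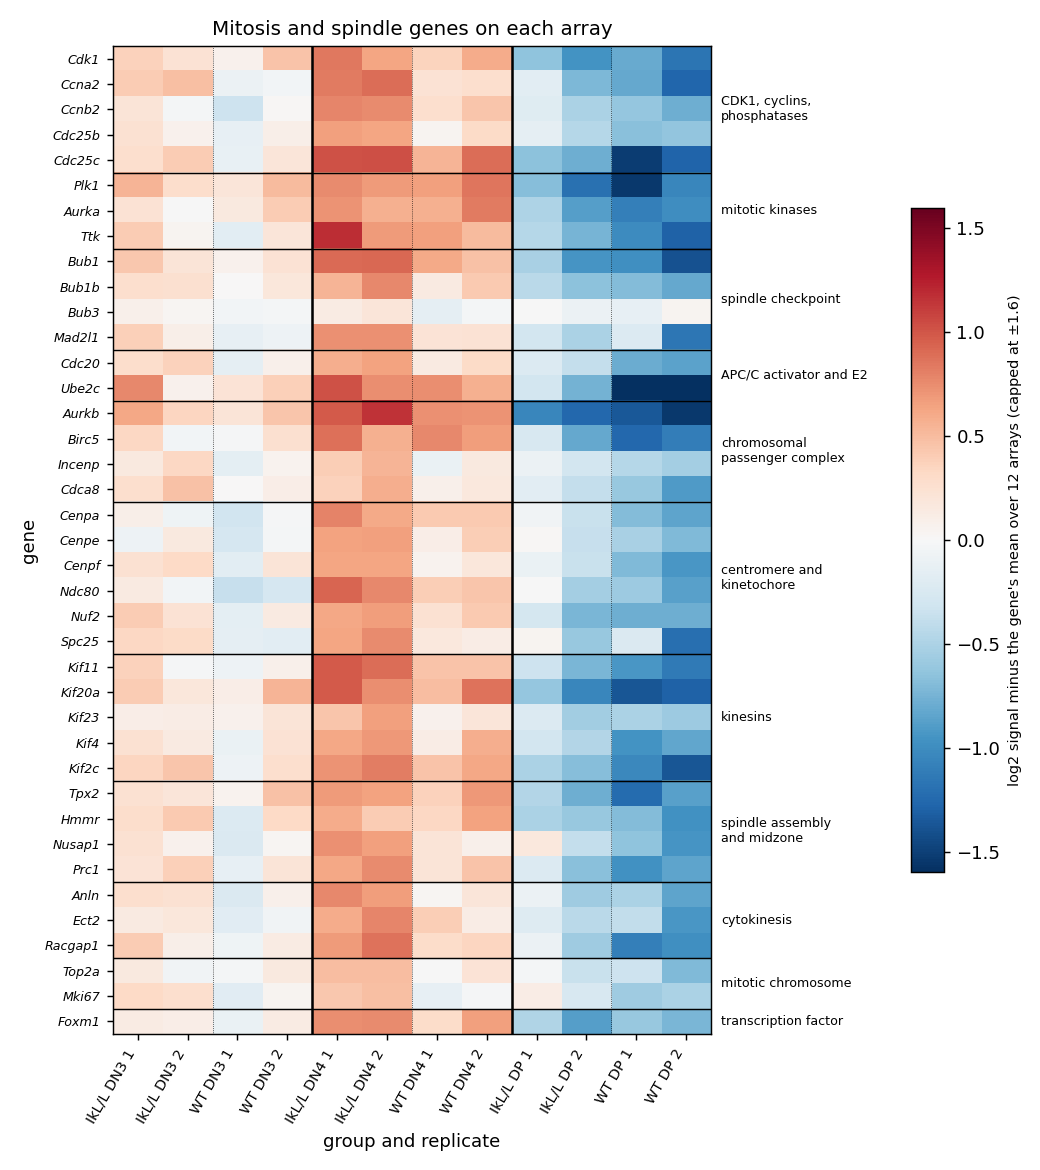
Log2 signal of each of the 39 members (rows, grouped by role) on each of the 12 arrays (columns), minus the gene's mean over the arrays, with colours capped at ±1.6. The DP columns are lowest and the DN4 columns highest, and Bub3 is nearly flat.

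Replicates of a group also differed as a block. In IkL/L DP cells replicate 1 was above replicate 2 for all 39 members, by a median of 0.32, whereas 51.1% of tested genes were higher in replicate 1. In WT DN3 cells replicate 2 was the higher for 38 of 39, by a median of 0.24 (replicate 1 minus 2, -0.24). The members therefore do not give independent readings of a group, and a count of members can rest on 1 array.

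The comparison of IkL/L with WT DP cells asks whether loss of Ikaros changes mitotic gene expression once most WT cells have stopped dividing. In IkL/L DP cells 8 of 39 members were called higher and 0 lower, where 4.36% of tested genes were called higher and 1.62% lower. The median difference was 0.45 on the log2 scale (1.36-fold), against 0.03 over tested genes, and 37 of 39 differences were above 0. The arrays of the genotypes did not overlap for 29 members, all higher in IkL/L, against 26% of tested genes. Called members came from the destruction machinery of anaphase, the kinetochore, the kinesins, the spindle, cytokinesis and the activation of CDK1.

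Ube2c, the E2 enzyme that loads ubiquitin for the anaphase-promoting complex, differed most. Its signal was 10.14 and 9.69 in IkL/L DP cells, against 8.72 and 8.71 in WT DP cells. The difference was 1.20 ± 0.22 (SE; 2.30-fold, adjusted p = 0.00544), and both IkL/L arrays were above both WT arrays. Its partner Cdc20, which activates the same complex, was higher by 0.52 ± 0.13 (adjusted p = 0.0377). Both members of this role were thus called, but the Cdc20 call was the less stable. Of the alternatives other than leaving out 1 array, 6 of 11 kept the Cdc20 call and 11 of 11 that of Ube2c. Most fits with 1 array left out lost the Cdc20 call.

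Racgap1, a GTPase-activating protein of the central spindle needed for cytokinesis, read 8.54 and 8.07 in IkL/L DP cells against 7.55 and 7.65 in WT DP cells (difference 0.71 ± 0.17, adjusted p = 0.0318). Nusap1, which bundles spindle microtubules, read 10.73 and 10.18 in IkL/L and 9.91 and 9.61 in WT DP cells (0.69 ± 0.18, adjusted p = 0.0488). Cdc25c, the phosphatase that activates CDK1 at entry to mitosis, read 6.92 and 6.79 in IkL/L and 6.05 and 6.30 in WT DP cells (0.68 ± 0.16, adjusted p = 0.0257). For each of these 3, the lower IkL/L array lay above the higher WT array, most closely for Nusap1. Kif2c, a kinesin that shortens microtubules at the centromere, read 9.55 and 9.38 in IkL/L against 9.02 and 8.69 in WT DP cells (0.60 ± 0.16, adjusted p = 0.0442). Cenpf, a large kinetochore protein, read 10.35 and 10.10 in IkL/L against 9.75 and 9.52 in WT DP cells (0.59 ± 0.15, adjusted p = 0.0451). Cenpa, the centromeric histone H3, was higher by 0.56 ± 0.15 (adjusted p = 0.0495). Nusap1, Kif2c, Cenpf and Cenpa all lay close to the threshold. Their calls were kept under 5, 5, 4 and 3 of the 11 alternatives other than leaving out 1 array, fewer than for Cdc20.

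Members not called in DP cells included some with differences as large. Birc5, the survivin subunit of the chromosomal passenger complex, differed by 0.64 (adjusted p = 0.0925) and cyclin A2 (Ccna2) by 0.60 (adjusted p = 0.0839). None of the 4 passenger complex members, 3 mitotic kinases or 4 checkpoint members was called in the main fit. As 4.36% of tested genes were called higher, lists this small cannot show that a role lacks calls. Foxm1, a transcription factor that drives many of these genes, differed by -0.01 (adjusted p = 0.988), with 7.08 and 6.69 in IkL/L and 6.96 and 6.83 in WT DP cells. Its arrays interleaved.

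The DP calls depended on single arrays. Without IkL/L DP replicate 1, 0 of 39 were called and the median difference was 0.24. Ube2c then differed by 0.98 with an adjusted p of 0.0712, the 1 case among the alternatives in which its call was lost. Leaving out WT DP replicate 2 or either WT DN4 array gave 2 calls, either IkL/L DN4 array 3, and WT DP replicate 1 or either WT DN3 array 5. Without the 3 IkL/L replicate 2 arrays, which left 1 array in each IkL/L group, the median was 0.60. The calls of Cdc25c, Cdc20, Cenpa, Cenpf and Kif2c were then lost, while other members, among them a member of the passenger complex, gained a call. With array weights, or with only the 4 DP arrays in the fit, 1 was called. In the same cells, 4 of 8 DN3-stage markers were called higher, and that list averaged 9.16 and 9.40 on the IkL/L DP arrays against 8.27 and 8.44 on the WT DP arrays. Dtx1, a Notch target, averaged 9.63 in IkL/L and 7.10 in WT DP cells, and Ptcra, the pre-T cell receptor alpha chain, 10.04 and 8.41. Il2ra, the receptor chain that defines DN3 cells, read 4.56 and 5.07 in IkL/L DP cells and 4.80 and 5.12 in WT DP cells, below the array medians, and 0 of 7 tested DP-stage markers changed. Mature T cell markers averaged 5.87 and 6.98 on the IkL/L DP arrays against 6.41 and 6.37 on the WT DP arrays, so the IkL/L replicates differed. Gamma-delta, NK and innate lymphoid markers averaged 6.21 and 6.48 against 6.13 and 5.93, and dendritic cell markers 5.77 and 6.08 against 5.94 and 5.61. Gzma (mean 11.43 against 9.32) and H2-Ab1 (7.47 against 6.09) differed most in these 2 lists. The part of all these markers in the DP result was not tested.

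**Figure D2:**
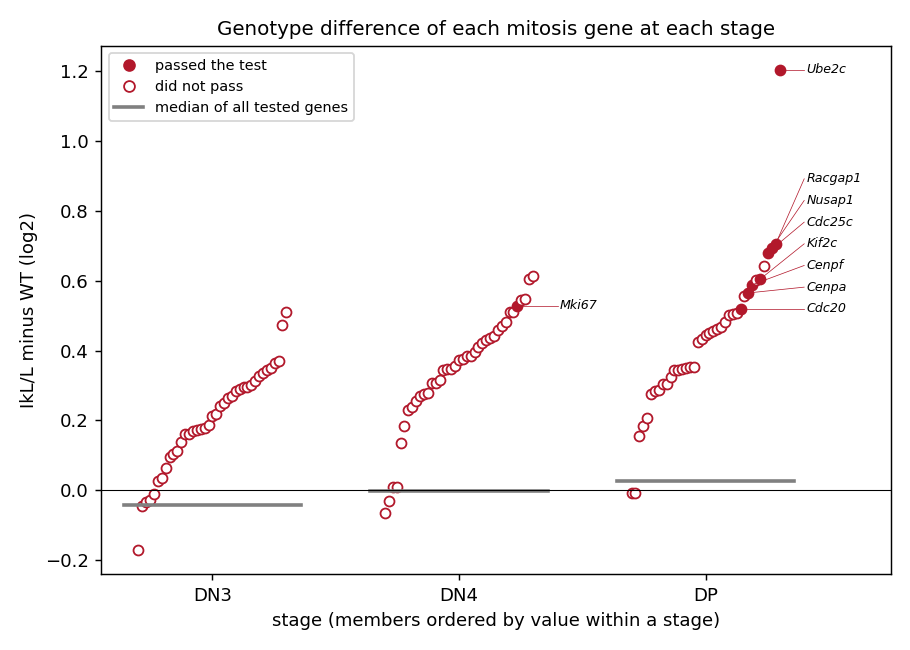
Difference IkL/L minus WT (log2, y axis) of each of the 39 members at each stage (x axis), ordered by value within a stage. Filled points passed the test (0 in DN3, 1 in DN4 and 8 in DP cells), and the grey bars are the medians of all tested genes.

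At the earlier stages most members leaned the same way with few calls. In DN4 cells 37 of 39 differences were above 0 with a median of 0.37, against -0.002 over tested genes (0.22 against -0.11 after a second quantile normalization). The arrays did not overlap for 33 members, where 32% of tested genes were higher in all IkL/L arrays. Only Mki67, the proliferation marker that coats mitotic chromosomes, was called higher (4.4% of tested genes were), and 0 were called lower (2.48%). Mki67 read 13.43 and 13.47 in IkL/L DN4 cells against 12.87 and 12.98 in WT DN4 cells, a difference of 0.53 ± 0.14 (adjusted p = 0.0497). Cyclin A2 differed by 0.61 (adjusted p = 0.0665), the largest in DN4 cells, and Aurora A (Aurka) by -0.06 (adjusted p = 0.836). The Mki67 call was lost without any 1 of the WT DN3, WT DN4 or IkL/L DN4 arrays, leaving 0 calls, whereas leaving out any DP array gave 3. It was lost too without the 3 IkL/L replicate 2 arrays, where the median was 0.36.

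Other cell type markers moved in DN4 cells as well. Mature T cell markers averaged 6.14 and 6.29 on the IkL/L DN4 arrays against 7.20 and 7.67 on the WT DN4 arrays, with 1 of 5 called lower. Markers of gamma-delta, NK and innate lymphoid cells averaged 6.93 and 7.01 against 7.47 and 7.64, with 3 of 6 called lower. DP-stage markers averaged 8.78 and 8.82 on the IkL/L DN4 arrays against 9.15 and 9.22 on the WT DN4 arrays. Among them Cd8b1 read 7.86 and 7.78 in IkL/L against 9.40 and 9.55 in WT DN4 cells. Ccr9 read 9.76 and 10.15 against 11.42 and 11.55, whereas the means of Rag1, Rag2 and Cd4 were higher in IkL/L. The part of all these markers in the DN4 values was not tested.

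In DN3 cells 0 members were called, where 2.08% of tested genes were called higher and 2.21% lower, and limma gave an unadjusted p under 0.05 for 3. The median difference was 0.21, against -0.04 over tested genes, 34 of 39 were above 0, and 18 had IkL/L arrays above both WT arrays, against 19.7% of tested genes. Cyclin A2, which drives S phase and entry to mitosis, had the lowest adjusted p (0.192): 11.14 and 11.21 in IkL/L DN3 cells against 10.64 and 10.69 in WT DN3 cells. Cdc20 read 11.89 and 11.98 in IkL/L and 11.47 and 11.70 in WT DN3 cells (adjusted p = 0.212). Mki67 read 13.31 and 13.26 in IkL/L and 12.81 and 13.03 in WT DN3 cells (adjusted p = 0.239). All 3 had higher IkL/L arrays, with differences of 0.51, 0.35 and 0.36. The median rested on single arrays: it was 0.081 without WT DN3 replicate 1, 0.32 without WT DN3 replicate 2 and 0.13 without IkL/L DN3 replicate 1. With the 3 IkL/L replicate 2 arrays left out, 0 were called and the median was 0.25.

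Other cell type markers also differed in DN3 cells. Dendritic cell markers averaged 6.37 and 6.48 on the IkL/L DN3 arrays against 5.75 and 5.86 on the WT DN3 arrays, with 3 of 6 called higher. The largest differences were in genes of the MHC class II pathway: H2-Aa (mean 7.92 in IkL/L against 5.98 in WT), H2-Ab1 (8.67 against 7.23) and Cd74 (6.84 against 5.99). The rest of the list differed less: Itgax 4.85 against 4.78, Zbtb46 5.46 against 5.23, Flt3 6.08 against 6.12 and Siglech 5.15 against 5.28. Mature T cell markers averaged 6.57 and 6.51 in IkL/L against 7.22 and 7.12 in WT DN3 cells, with 0 of 5 called. Myeloid markers averaged 5.95 and 5.12 in IkL/L against 4.95 and 5.05 in WT DN3 cells, with 0 of 7 called. Their replicates differed: S100a8 read 8.96 and 5.33 in IkL/L and 4.99 and 5.15 in WT DN3 cells. Alas2, an erythroid marker, read 8.80 and 5.65 in IkL/L and 6.58 and 7.10 in WT DN3 cells. The rest of the erythroid list differed less in mean: Hba-a1 4.07 in IkL/L against 3.93 in WT, Klf1 5.61 against 5.39 and Epor 5.83 against 5.71. In DN4 cells these means were 3.83 against 4.11, 5.57 against 5.53 and 5.57 against 5.98. In IkL/L DN4 cells S100a8 read 7.09 and 4.49, and Alas2 8.64 and 5.85. Fits without the 3 IkL/L replicate 2 arrays keep the replicate 1 arrays, where both genes were the higher at these stages. Gamma-delta, NK and innate lymphoid markers averaged 7.43 and 7.11 in IkL/L against 7.67 and 7.54 in WT DN3 cells, with 2 of 6 called lower. Their part in the DN3 values was not tested.

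Over the 3 stages, 31 of 39 members had a difference above 0 each time, against 21.2% of tested genes. For 13 members every IkL/L array lay above both WT arrays of its stage at all 3 stages (6.85% of tested genes), and for 0 every array lay below (3.94%). The 13 were Ccna2, Cdc25c, Bub1b, Cdc20, Incenp, Cdca8, Cenpf, Ndc80, Nuf2, Kif2c, Nusap1, Prc1 and Mki67. At the other end, Plk1, the Polo-like kinase, had overlapping genotypes at each stage. Of the 6 centromere and kinetochore members, 3 were among the 13, and of the 3 mitotic kinases none.

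The step to DN4 follows cells past the receptor checkpoint into rapid division. In IkL/L cells 6 of 39 members were called higher in DN4 than in DN3 cells and 0 lower, where 1.2% of tested genes were called higher and 3.19% lower. The median step was 0.46 against -0.002 over tested genes, all 39 were above 0, and 36 had DN4 arrays above both DN3 arrays (20.5% of tested genes). In WT cells 3 were called higher and 0 lower, where 1.55% and 7.7% of tested genes were. The WT median was 0.32 against -0.03 (0.19 without WT DN3 replicate 1), 37 were above 0, and 25 had separate arrays (25.3% of tested genes). Ndc80, Cdc25c and Cenpa were called in both genotypes.

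Ndc80, the subunit of the kinetochore that grips microtubules, read 9.77 and 9.60 in IkL/L DN4 cells against 8.98 and 8.79 in IkL/L DN3 cells (0.80 ± 0.18, adjusted p = 0.0249). In WT cells it read 9.23 and 9.28 in DN4 against 8.46 and 8.57 in DN3 (0.74 ± 0.18, adjusted p = 0.0218). It had the largest step of any member in both genotypes. Cdc25c read 8.60 and 8.61 in IkL/L DN4 against 7.84 and 7.98 in IkL/L DN3 cells (0.69 ± 0.16, adjusted p = 0.0302). Its WT values were 8.12 and 8.47 in DN4 against 7.45 and 7.77 in DN3 (0.68 ± 0.16, adjusted p = 0.0194). For Cdc25c the steps of the genotypes differed by 0.01 ± 0.23. Cenpa read 10.87 and 10.69 in IkL/L DN4 against 10.17 and 10.01 in IkL/L DN3 cells (0.69 ± 0.15, adjusted p = 0.0238). Its WT values were 10.50 and 10.50 in DN4 against 9.77 and 10.06 in DN3 (0.59 ± 0.15, adjusted p = 0.0307). DN4 arrays lay above DN3 arrays throughout for these 3 genes.

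Kif11, the kinesin that pushes spindle poles apart, read 10.13 and 10.05 in IkL/L DN4 against 9.53 and 9.13 in IkL/L DN3 cells (0.76 ± 0.17, adjusted p = 0.026). Cyclin B2 (Ccnb2), a CDK1 partner, read 11.40 and 11.37 against 10.82 and 10.59 (0.68 ± 0.16, adjusted p = 0.0352). Aurora B (Aurkb), the kinase of the chromosomal passenger complex, read 10.15 and 10.32 in IkL/L DN4 against 9.78 and 9.51 in IkL/L DN3 cells (0.59 ± 0.15, adjusted p = 0.0496). In WT cells these 3 differed by 0.45, 0.51 and 0.40 and were not called. The 6 IkL/L calls fell to 0 without IkL/L DN3 replicate 2, without either IkL/L DN4 array, or without the 3 IkL/L replicate 2 arrays. The 3 WT calls fell to 0 without WT DN3 replicate 1 or WT DN4 replicate 2 and to 1 without WT DN4 replicate 1, and were 4 without the 3 IkL/L replicate 2 arrays. With the replicate number as a block within each genotype, an alternative chosen after seeing the data, 12 members were called higher in IkL/L (2.27% of tested genes) and 7 in WT cells (2.36%).

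The difference of these steps between genotypes was tested directly. It was called for 0 of 39 members in either direction (0.0258% of tested genes each way), with an unadjusted p under 0.05 from limma for 1. The median difference of steps, IkL/L minus WT, was 0.16 against 0.09 over tested genes, but 0.045 without WT DN3 replicate 2, 0.081 without WT DN4 replicate 1, 0.091 when the 3 IkL/L replicate 2 arrays were left out, 0.28 without WT DN3 replicate 1 and -0.0053 after a second quantile normalization. Kif23 had the lowest adjusted p: its step was 0.45 larger in IkL/L cells (adjusted p = 0.508), from 10.58 and 10.80 in IkL/L DN4 and 10.24 and 10.26 in IkL/L DN3 cells, with 10.20 and 10.33 in WT DN4 and 10.21 and 10.34 in WT DN3 cells. Top2a, the topoisomerase that untangles chromosomes, had a step 0.40 larger (adjusted p = 0.619), and Cdc25b, another CDK1-activating phosphatase, 0.29 larger (adjusted p = 0.681). The count stayed at 0 under every alternative tried, among them the fit without the 3 IkL/L replicate 2 arrays.

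The fall from DN4 to DP cells was the main change of the members in both genotypes. In IkL/L cells 38 of 39 were called lower in DP than in DN4 cells and 0 higher, where 26% of tested genes were called lower and 19.5% higher. The median step was -1.12, so that DP cells held 45.9% of the DN4 signal, against -0.04 over tested genes. In WT cells 38 were again called lower and 0 higher (33.2% and 23.8% of tested genes), with a median of -1.14, or 45.3% of the DN4 signal, against -0.15. DP arrays lay below both DN4 arrays for 39 members in IkL/L cells (40.7% of tested genes) and for 38 in WT cells (46.8%). Without the 3 IkL/L replicate 2 arrays the IkL/L count was 31 and the median -0.94, and the WT count was 38.

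Aurora B fell by 2.22 ± 0.15 on the log2 scale in IkL/L cells (adjusted p = 5.71e-07), the deepest IkL/L fall, with 8.13 and 7.91 in DP against 10.15 and 10.32 in DN4 cells. Its WT values were 7.81 and 7.62 in DP against 9.90 and 9.88 in DN4 cells, a difference of -2.18 (adjusted p = 3.47e-07). The difference between the steps of Aurkb, IkL/L minus WT, was -0.04 ± 0.21. Cdc25c fell by 1.75 in IkL/L cells (adjusted p = 4.73e-06) and its WT step was -2.12 (adjusted p = 6.36e-07), to the DP values given above. Kif20a, a kinesin of cytokinesis, read 7.72 and 7.29 in IkL/L DP against 9.32 and 9.08 in IkL/L DN4 cells (-1.70, adjusted p = 2.74e-05). Its WT values were 6.97 and 7.03 in DP against 8.83 and 9.20 in DN4 cells (-2.01, adjusted p = 4.48e-06). Every DP array of these genes was well below every DN4 array.

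Plk1, which acts from entry to mitosis through cytokinesis, read 8.16 and 7.65 in IkL/L DP against 9.60 and 9.53 in IkL/L DN4 cells (-1.66, adjusted p = 5.1e-05). In WT cells it read 7.30 and 7.81 in DP against 9.50 and 9.70 in DN4 (-2.05, adjusted p = 6.39e-06). The replicates of each DP group were about 0.5 apart, less than the fall. Bub1, a checkpoint kinase, read 9.30 and 8.86 in IkL/L DP against 10.71 and 10.73 in IkL/L DN4 cells (-1.64, adjusted p = 1.69e-05). Cdk1 read 9.78 and 9.47 in IkL/L DP against 11.27 and 11.06 in IkL/L DN4 cells (-1.54, adjusted p = 3.24e-05). In WT cells the step was -1.73 for Bub1 and -1.46 for Cdk1.

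The deepest WT fall was that of Ube2c, which read 8.72 and 8.71 in DP against 11.18 and 11.01 in DN4 cells (-2.38 ± 0.22, adjusted p = 2.62e-06). In IkL/L cells it read 10.14 and 9.69 in DP against 11.46 and 11.18 in DN4 cells (-1.41 ± 0.22, adjusted p = 0.000226). Birc5 read 9.04 and 9.19 in WT DP against 11.07 and 10.97 in WT DN4 cells (-1.90, adjusted p = 8.37e-06), and fell by 1.27 in IkL/L cells (adjusted p = 0.000276). IkL/L minus WT was 0.23 for Ube2c and 0.01 for Birc5 in DN4 cells, and 1.20 and 0.64 in DP cells.

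Among the called members the smallest WT fall was that of Mki67, at -0.46 (adjusted p = 0.0161), followed by Incenp, the scaffold of the passenger complex, at -0.52 and Top2a at -0.63. In WT cells Mki67 read 12.43 and 12.49 in DP against 12.87 and 12.98 in DN4. Bub3 was not called in either genotype. It read 12.50 and 12.41 in IkL/L DP against 12.64 and 12.71 in IkL/L DN4 cells (-0.22, adjusted p = 0.167), and 12.38 and 12.55 in WT DP against 12.36 and 12.48 in WT DN4 cells (0.05, adjusted p = 0.758). Another Bub3 probe set, with a mean of 8.36, differed by -0.76 in WT DP against WT DN4 cells, and one with a mean of 5.90 by 1.74, so the probe sets of this gene disagree. Stress genes induced by handling, such as Fos and Jun, were also lower in DP cells: their list averaged 7.20 and 7.03 on the IkL/L DP arrays against 9.47 and 9.27 on the IkL/L DN4 arrays, and 7.31 and 7.30 against 9.31 and 9.79 in WT cells. Of 7 tested, 4 were called lower and 2 higher in IkL/L cells, and 5 lower and 1 higher in WT cells. Their part in the step was not tested. The actin 3′ minus 5′ signal, a measure of RNA quality, was 2.26 and 2.64 on the IkL/L DP arrays against 1.93 and 2.39 on the IkL/L DN4 arrays, and 2.86 and 2.29 on the WT DP arrays against 1.74 and 1.93 on the WT DN4 arrays. With it as a covariate, 38 members were called lower in IkL/L (median -1.08) and 37 in WT cells (median -1.09), the WT call of Mki67 being lost.

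**Figure D3:**
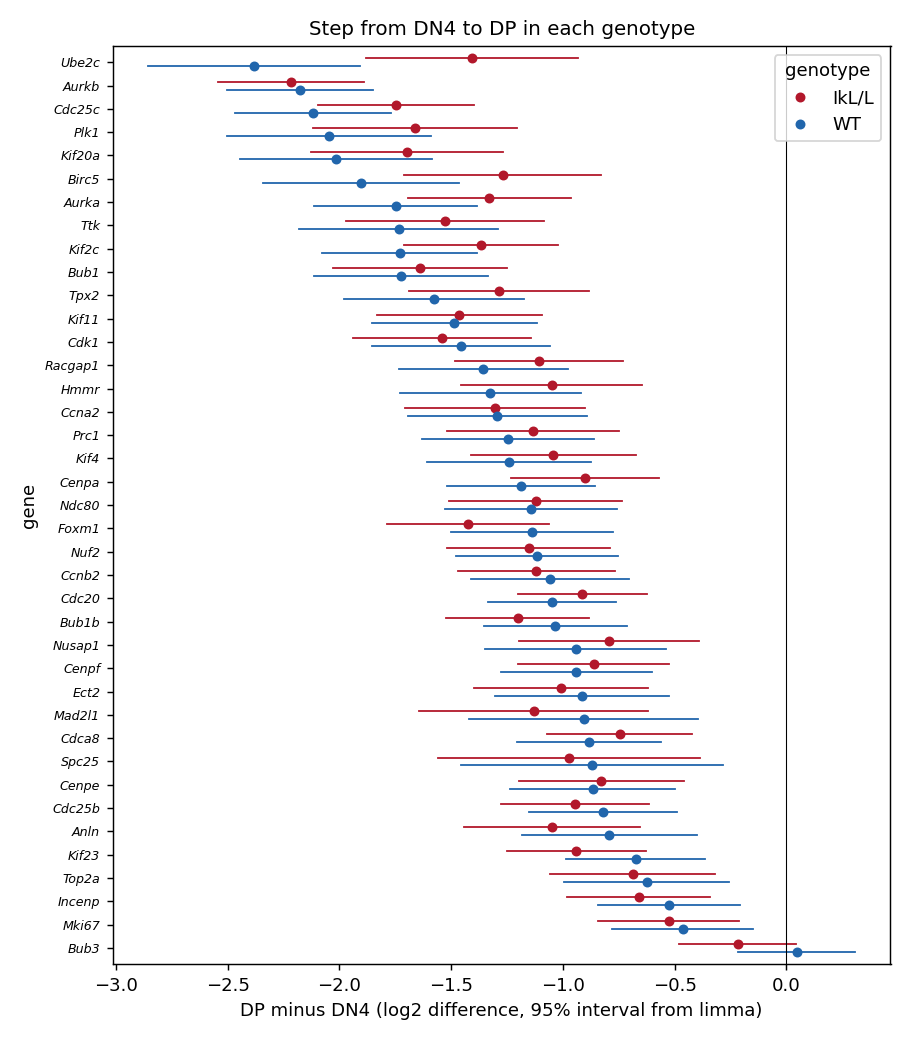
Step from DN4 to DP (DP minus DN4, log2, x axis) of each member in IkL/L (red, upper) and WT cells (blue, lower), with the 95% interval from limma. All members but Bub3 lie below 0 in both genotypes, and Ube2c has the widest gap between the genotypes.

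Whether the fall differed between genotypes was again tested directly. The difference of steps was called for 0 of 39 members, where 0.661% of tested genes were called with a positive and 0.326% with a negative difference, and limma gave an unadjusted p under 0.05 for 2. Its median was 0.04, as over tested genes (0.04), and ran from -0.15 without IkL/L DP replicate 1 to 0.23 without IkL/L DP replicate 2. No member was called, and the median was 0.23, without the 3 IkL/L replicate 2 arrays. Ube2c had the lowest adjusted p, 0.167: its fall was 0.97 ± 0.31 smaller in IkL/L cells. With the replicate number as a block within each genotype, an alternative chosen after seeing the data, Ube2c was the 1 member called (0.97 ± 0.20, adjusted p = 0.0376). In that fit 1.18% of tested genes were called with a positive difference. Over tested genes, replicate 1 minus 2 correlated between DN4 and DP cells at 0.0149 in IkL/L and 0.271 in WT cells, so pairing was weak at this step in IkL/L cells. For Birc5 the fall was 0.63 smaller (adjusted p = 0.324) and for Aurora A 0.42 smaller (adjusted p = 0.434). The step of Aurora A was -1.33 in IkL/L cells, with 8.33 and 7.95 in DP against 9.55 and 9.40 in DN4, and -1.75 in WT cells, with 7.74 and 7.84 in DP against 9.41 and 9.67 in DN4.

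**Figure D4:**
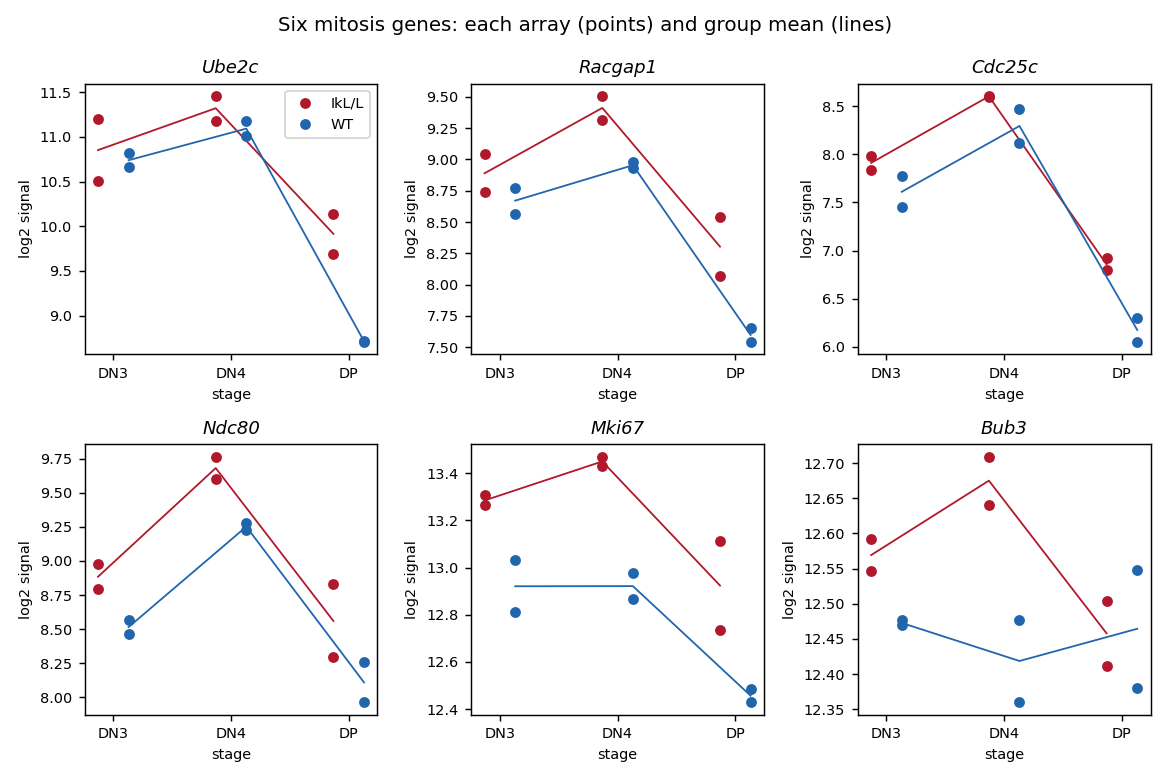
Log2 signal (y axis, a scale for each gene) of 6 members at the 3 stages (x axis) in IkL/L (red) and WT cells (blue); points are arrays and lines join group means. Ube2c and Racgap1 separate by genotype in DP cells and less widely in DN4 cells (Ube2c only just). Cdc25c, Ndc80 and Mki67 separate at each stage, and Bub3 changes little.

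Further probe sets allowed a check on the choice of the brightest. Of the 39 genes, 26 had 50 other probe sets, of which 27, from 20 genes, lay above the array median on all arrays. In DP cells 23 of these 27 had the sign of the gene's brightest probe set for IkL/L minus WT, with a median of 0.27, against 0.46 for the brightest of the same genes. In DN4 cells 27 of 27 did, with a median of 0.31 against 0.35. For the fall from DN4 to DP, 27 of 27 agreed in sign in IkL/L cells and 24 of 27 in WT cells. Racgap1's other bright probe set differed by 0.39 in DP cells and that of Cdc25c by 0.69. Ube2c had a single probe set.

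Other mitosis genes were tested for 130 of 134 listed. For IkL/L against WT, 1 was called higher in DN3 cells, where 2.08% of all tested genes were, 12 in DN4 (4.4%) and 11 in DP cells (4.36%), and 0 lower, with medians of 0.11, 0.25 and 0.23. The DN3 count was below the share of all tested genes. The counts were 1, 2 and 11 without the 3 IkL/L replicate 2 arrays. Psrc1, a spindle microtubule protein, was called at each stage: it was higher by 1.39 in DN3 (adjusted p = 0.00467), 1.23 in DN4 (adjusted p = 0.00952) and 1.45 in DP cells (adjusted p = 0.00268). Its arrays read 8.50 and 7.94 in IkL/L DP against 7.15 and 6.39 in WT DP cells. Aspm, a spindle pole protein, differed by 0.80 in DN4 cells (adjusted p = 0.0121), Arhgap11a, a RhoA regulator, by 0.78, and Cep55, which acts in the final cut between daughter cells, by 0.73. In DP cells Iqgap3 differed by 1.16, with 7.67 and 7.37 in IkL/L against 6.25 and 6.47 in WT cells (adjusted p = 0.00213), Cep55 by 1.09 and the kinase Melk by 0.91.

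In the same list, 6 genes were called higher in DN4 than in DN3 cells in IkL/L cells (1.2% of all tested genes) and 2 in WT cells (1.55%, so the WT count was at the background), with 0 lower. In IkL/L cells the largest were Esco2, a cohesin acetyltransferase, at 1.04, Spag5 at 0.76, Ccnf at 0.74 and Knl1, a kinetochore scaffold, at 0.71. In WT cells they were Ska1 at 0.68 and Sgo2a, a shugoshin, at 0.58. From DN4 to DP, 99 were called lower and 4 higher in IkL/L cells (median -1.01), where 26% and 19.5% of all tested genes were, and 95 lower and 8 higher in WT cells (median -0.95), where 33.2% and 23.8% were. Without the 3 IkL/L replicate 2 arrays, 0 were called at the IkL/L step to DN4 and 85 were called lower at the IkL/L step to DP. Cenph, a kinetochore subunit, had the deepest fall in both, -2.43 in IkL/L and -2.64 in WT cells, followed by Zwilch at -2.13 and -2.11. The step of Trip13 was -1.86 in IkL/L and -2.11 in WT cells, that of Cenpk -1.93 in IkL/L cells and that of Cep55 -2.10 in WT cells. The difference of steps was called for 0 of the 130 at either step.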

How the data were processed

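RNA of sorted thymocytes was measured on 12 Affymetrix arrays. The authors deposited log2 signals, 1 per probe set and array, made with RMA (background correction, quantile normalization and summary) per the submitters' processing notes; version, and whether all arrays were normalized together, are not given in the sources used here. Per the labels' protocols, cRNA was labelled in 2-cycle assays in series that differed in RNA input, which the labels do not tie to samples, so that batch was not tested. Array signal has no read depth: the number of arrays limits precision, and 75th percentiles were 7.34 to 7.57.

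Probe sets numbered 45099, and those with several symbols (932) or none (9209) were left out. The other 34958 gave 18194 genes, each by its brightest probe set. Tested were the 11649 that reached the array median on 2 or more arrays. Groups followed the titles. limma 3.58.1 in R 4.3.3 fitted 1 mean per group over all 12 arrays (6 residual and 5.67 prior degrees of freedom), with Benjamini-Hochberg adjustment per contrast. SE is limma's. Probe sets beyond the brightest were fitted over all probe sets. Members, lists and rules were chosen with earlier results of these data known. Named were, per contrast, the 6 called members with the largest difference and separate arrays, or the 3 with the lowest adjusted p where none was called, the smallest step as the exception, and 4 called genes of the list of other mitosis genes; others are given as counts, or were chosen after their values were seen. Of 13 kinds of alternative, 1 chosen after seeing the data, effects are given at the end. The fit was tested on simulated data.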

Additional observations from a re-analysis of the deposited data

How the results depend on the processing

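The fall of the members from DN4 to DP kept its direction in both genotypes: 34 to 38 of 39 were called lower when any array was left out, and 31 to 38 in IkL/L and 36 to 38 in WT cells under the other alternatives. Averaging all probe sets per gene gave 1 WT call higher in place of 0. Counts near the threshold moved. For IkL/L minus WT in DN4 cells (1 call), there were 0 with the brightness filter at the 75th percentile, with arrays centred on their median, with a second quantile normalization, with the replicate number as a block and without the 3 IkL/L replicate 2 arrays, 3 with the mean of probe sets, 4 with a trended robust prior and with the actin 3′ minus 5′ signal as a covariate, 7 with array weights and 8 with only the arrays compared; with an array left out, 0 to 3. In DP cells (8 calls) there were 1 with array weights and with only the arrays compared, 3 with a second quantile normalization, 4 with the mean of probe sets, 5 with centred arrays, with the replicate block and without the 3 arrays, and 10 with a trended robust prior and with the actin covariate; with an array left out, 0 to 8. In DN3 cells the count stayed at 0. For WT DN4 minus DN3 (3 calls) there were 7 with only the arrays compared and with a replicate block within genotype, 8 with a second quantile normalization and 10 with array weights; with an array left out, 0 to 3. For IkL/L DN4 minus DN3 (6 calls) there were 0 with only the arrays compared and without the 3 arrays, 2 with array weights, 8 with the mean of probe sets and with the actin covariate, and 12 with the replicate block within genotype; with an array left out, 0 to 6. The cause of these moves was not tested, other than that leaving out arrays leaves fewer samples.

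Second quantile normalization lowered the DN4 genotype median from 0.37 to 0.22 while the median of all genes moved from -0.002 to -0.11, so that the members stood 0.33 above it in place of 0.37. The median difference of the DN3-to-DN4 steps (0.16) turned to -0.0053 with a second quantile normalization. That of the DN4-to-DP steps (0.04) turned to -0.032 with the mean of probe sets, to -0.0043 without WT DN4 replicate 2, to -0.039 without WT DP replicate 2 and to -0.15 without IkL/L DP replicate 1, and reached 0.23 without IkL/L DP replicate 2. No difference of steps was called for any member under any alternative but the replicate block within genotype, which called 1 (Ube2c, DN4 to DP). Replicate numbers did not pair arrays across genotypes, where same-numbered deviations correlated from -0.338 to 0.0624 over 9 pairs of groups. Within a genotype all 6 correlations were positive: 0.317, 0.147 and 0.271 in WT cells, and 0.494, 0.0864 and 0.0149 in IkL/L cells. The block within genotype was therefore added after seeing the data, for the steps and their difference; it changed no direction, and the counts of 38 members lower in DP cells stayed at 38. Of the 38 WT calls lower, those of Incenp, Spc25, Top2a and Mki67 were lost under at least 1 alternative.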

Other observations

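DNA replication genes, which act before mitosis in the cell cycle, followed the same stages. Of 48 tested genes of this list, 47 were called lower in DP than in DN4 cells in IkL/L and 43 in WT thymocytes, where 26% and 33.2% of all tested genes were, with medians of -1.52 and -1.41, against -1.12 and -1.14 for the mitosis members. From DN3 to DN4, 3 were called higher in each genotype (1.2% of all tested genes in IkL/L and 1.55% in WT cells), with medians of 0.34 in IkL/L and 0.19 in WT cells. For IkL/L against WT, 0 were called higher in DN3 (2.08% of all tested genes), 3 in DN4 (4.4%) and 2 in DP cells (4.36%), counts at or near the background, and the medians were 0.13, 0.31 and 0.22. Without the 3 IkL/L replicate 2 arrays, 0 were called in DN4 and 2 in DP cells, 0 higher at either step to DN4, and 44 lower at the step to DP in each genotype. The median of the DP genotype difference was thus 0.22 for replication genes and 0.45 for the mitosis members; the difference between the lists was not tested.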
